A study of Mus musculus with 8 samples.

Results

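The aminoacyl-tRNA synthetases, the enzymes that load amino acids onto their tRNAs, were compared between livers that carried or lacked Cre recombinase under the albumin promoter, in a mouse model of autoimmune hepatitis. The genes were chosen by symbol, as the names built from an amino acid letter and "ars" together with Eprs, Farsa, Farsb and Tarsl2. The rule found 38 genes among 13703 rows. Of these, 21 encode the enzymes of the cytosol and 17 those of mitochondria, whose symbols end in 2. Gars and Kars, which supply both compartments from a single gene, and Tarsl2, known as a cytosolic enzyme in spite of its name, were counted as cytosolic. Alb-Cre Bicd2fl/fl livers (4 libraries) were set against Alb-WT Bicd2fl/fl livers (4 libraries). Every mouse carried the loxP-flanked Bicd2 alleles and every mouse received S-100, the high-speed supernatant of liver homogenate, at a weekly dose of 2.5 mg emulsified in complete Freund's adjuvant for 3 weeks, with livers taken 2 weeks later. The albumin promoter drives Cre in hepatocytes, so Bicd2, an adaptor between dynein and its cargo, was targeted there and other liver cells kept it. The labels give no age or sex, no liver without immunization was analysed here, and nothing in the labels says that libraries came from separate animals, so the p-values speak only of how these libraries scattered, which can be technical scatter.

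Each synthetase recognises its amino acid and the matching tRNA and joins them at the expense of ATP, which makes the pool of charged tRNA that ribosomes draw on. The enzymes fall into class I and class II by the fold of their catalytic domain, and several cytosolic members sit in a large multi-synthetase complex held together by scaffold proteins. Mitochondria run their own translation for the few proteins their genome encodes, and most of their synthetases are separate nuclear genes. Liver makes plasma proteins in bulk, and uncharged tRNA is sensed by the kinase Gcn2 (Eif2ak4), whose downstream factor ATF4 is known to induce several cytosolic synthetases.

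Levels are fragments scaled by exon length and library total (FPKM), as deposited. Libraries held 32522415 to 38889261 fragments, as recovered from the FPKM steps, and single synthetase genes held 76 to 11562 fragments per library. Bicd2 was lower in the Alb-Cre libraries (0.705, 0.568, 0.509 and 0.732 FPKM) than in the Alb-WT libraries (2.46, 3.02, 2.80 and 3.11 FPKM), a log2 fold change of -1.24 (limma adjusted p = 7.25e-05). That scale, log2(FPKM + 1), understates the change at so low a level. With a pseudocount of 0.1 the estimate was -2.02, and with limma-voom on the recovered fragments -2.19. Alb-Cre replicate 4 stood apart from its group: its Pearson correlation with the other 3 Alb-Cre libraries, across genes, was 0.958 to 0.960, whereas those 3 correlated with each other at 0.995 to 0.996. With the Alb-WT libraries its correlation was 0.974 to 0.977, higher than with its own group, although its Bicd2 level was that of Alb-Cre. Summed FPKM of 14 Kupffer cell and macrophage markers was 392.1 to 397.8 in Alb-Cre replicates 1 to 3, 1333 in Alb-Cre replicate 4 and 1378 to 1413 in Alb-WT. Summed FPKM of 14 hepatocyte markers, among them albumin, was 51250 to 53260 in Alb-Cre replicates 1 to 3, 45800 in replicate 4 and 51210 to 52220 in Alb-WT, so the libraries carried the defining transcripts of liver. The deposited values held no 0 for any gene, so a listed marker could only be present or missing. Present were 14 of 14 Kupffer cell and macrophage, 14 of 15 hepatocyte and 7 of 12 neutrophil markers. Of T and NK cell markers 7 of 12 were present, of B and plasma cell markers 9 of 10 and of cholangiocyte markers 6 of 8. In bulk liver, fewer cells of a type and less RNA per cell cannot be told apart. Counts of calls, and fold changes of synthetase genes that this library moved across the threshold for a call, are therefore also given without it. Fold changes of other genes are mostly those of all libraries together, and this library moved some of them as well.

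Cytosolic synthetase transcripts were more abundant than mitochondrial ones in both genotypes. The mean level over all 8 libraries ranged from 1.35 FPKM (Tarsl2) to 31.4 FPKM (Nars) among the 21 cytosolic genes, with a median of 11.2 FPKM. It ranged from 0.317 FPKM (Mars2) to 11.4 FPKM (Lars2) among the 17 mitochondrial genes, with a median of 3.02 FPKM. Nars, the asparagine enzyme, Aars, the alanine enzyme, and Tars, the threonine enzyme, led the order, followed by Dars for aspartate and Mars1 for methionine. At the low end stood Pars2, Wars2 and Mars2, the mitochondrial proline, tryptophan and methionine enzymes. The 21 cytosolic genes summed to 243, 244, 248 and 307 FPKM in Alb-Cre replicates 1 to 4 and to 244, 227, 234 and 236 FPKM in Alb-WT replicates 1 to 4. For the 17 mitochondrial genes the sums were 66.2, 60.01, 54.5 and 61.8 FPKM in Alb-Cre libraries, against 55.4, 54.5, 57.6 and 56.2 FPKM in Alb-WT libraries. The cytosolic sum was highest in Alb-Cre replicate 4, and the sums of the groups overlapped for both compartments.

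**Figure D1:**
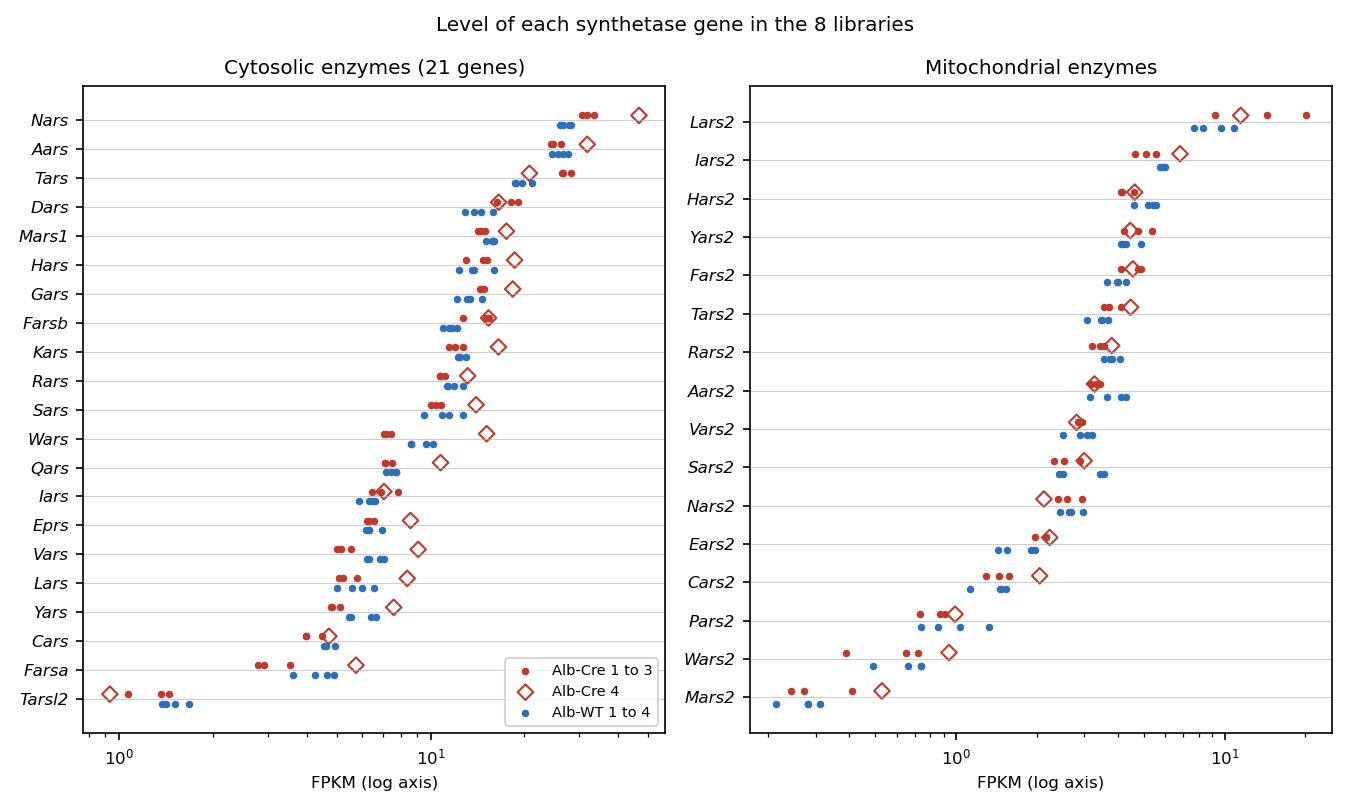
FPKM of 37 of the 38 synthetase genes in the 8 libraries on a log axis, cytosolic genes on the left and mitochondrial genes on the right, ordered by mean level. Open diamonds are Alb-Cre replicate 4, which lies at the right-hand edge for most cytosolic genes, while the other Alb-Cre points and the Alb-WT points mostly lie close together.

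In the comparison of all 8 libraries 3 synthetase genes rose in Alb-Cre livers and none fell. The risers were Farsb, Dars and Tars, all cytosolic and all of class II. The test was limma on log2(FPKM + 1) for the 11077 rows averaging 0.5 FPKM or more, and the Benjamini-Hochberg adjustment ran over all of them with 0.05 as the threshold for a call. Of the 38 genes 37 passed that filter, and Mars2 did not. Among all rows tested 8.48% were called higher (939) and 23.3% lower (2582), against 3 and 0 of the 37 synthetase genes. By the unadjusted p under 0.05, 6 synthetase genes were higher and 1 was lower, and limma-voom on the recovered fragments called 4 higher and 0 lower. Leaving out Alb-WT replicate 1 left 0 called by limma (5 higher at an unadjusted p under 0.05), leaving out Alb-Cre replicate 1 or 2 or Alb-WT replicate 2 or 4 left Farsb alone, and leaving out Alb-Cre replicate 4 gave 5 higher and 6 lower. The estimates were positive for 21 and negative for 16 of the 37 synthetase genes, whereas over all rows 3576 were positive and 7501 negative. The median log2 fold change was 0.05 for cytosolic and -0.004 for mitochondrial synthetase genes, beside -0.13 for all rows. Without Alb-Cre replicate 4 the cytosolic median was -0.06, the opposite direction, and the mitochondrial median -0.01, beside -0.16 for all rows. No p is given for these medians, since genes are not replicates.

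The counts depended on the scaling of libraries. Median-of-ratios scaling, which moved the median of all rows from -0.13 to 0.02, called 15 synthetase genes higher and 0 lower, with 1872 of all rows higher (16.9%) and 1516 lower. Of these 15 genes 11 were cytosolic and 4 mitochondrial. Removing each library's trend with gene length called 14 higher, 8 cytosolic and 6 mitochondrial, with 12.6% of all rows higher. Quantile normalization called 10 higher and 0 lower beside 1554 and 1469 of all rows, and a common FPKM sum called only Tars higher and only Hars2 lower beside 623 and 3013. Relative to the median of all rows, the cytosolic median stood at 0.18 as deposited and at 0.11 to 0.20 under the other 4 scalings, and the mitochondrial median at 0.12 and at 0.09 to 0.18. Taken without that subtraction, the mitochondrial median was -0.05 with a common FPKM sum and 0.11 to 0.20 with the other 3. The cytosolic median was -0.02 with a common FPKM sum, 0.05 as deposited and 0.13 to 0.22 with the other 3. The direction of both medians thus flips with the scaling. Farsb, Dars and Tars were positive under each scaling.

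**Figure D2:**
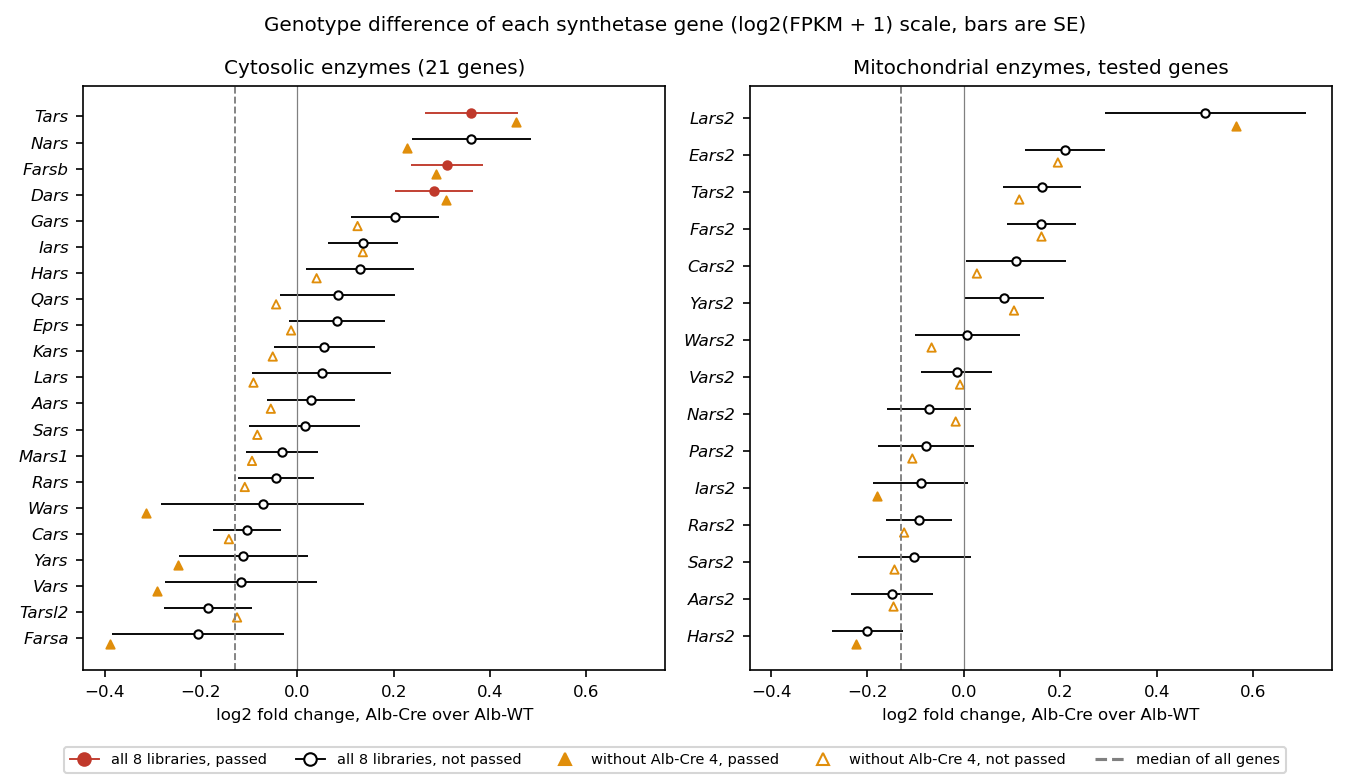
Log2 fold change of Alb-Cre over Alb-WT on the log2(FPKM + 1) scale for the tested synthetase genes shown, with its standard error, in all 8 libraries (circles) and without Alb-Cre replicate 4 (triangles), filled where limma called the gene. The dashed line is the median of all rows, -0.13. Tars, Farsb and Dars are filled circles on the right, and most cytosolic triangles lie to the left of their circles.

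Farsb and Farsa encode the beta and alpha subunits of the cytosolic phenylalanine enzyme, which work together in a single heterotetramer. Farsb had 12.7, 15.03, 15.4 and 15.3 FPKM in Alb-Cre livers, against 10.9, 12.2, 11.5 and 11.7 FPKM in Alb-WT livers. Every Alb-Cre value lay above every Alb-WT value, and Alb-Cre replicate 1 was the lowest of its group. Farsb averaged 14.6 ± 1.29 FPKM in Alb-Cre and 11.6 ± 0.504 FPKM in Alb-WT livers (SD, n = 4 each), a log2 fold change of 0.31 ± 0.08 (SE, limma adjusted p = 0.0175), and 0.29 without Alb-Cre replicate 4 (adjusted p = 0.00508). The call was lost without Alb-Cre replicate 3, Alb-WT replicate 1 or Alb-WT replicate 3 (limma adjusted p = 0.0542, 0.0555 and 0.0516). Farsa had 2.91, 2.79, 3.53 and 5.75 FPKM in Alb-Cre livers, against 4.88, 4.26, 3.61 and 4.63 FPKM in Alb-WT livers. Alb-Cre replicates 1 to 3 were below every Alb-WT library and replicate 4 was above them all. Farsa was not called in all 8 libraries (log2 fold change -0.21 ± 0.18, limma adjusted p = 0.386) and fell without Alb-Cre replicate 4 (log2 fold change -0.39, adjusted p = 0.00513). The ratio of Farsb to Farsa, given as a description, was 4.36, 5.38, 4.37 and 2.67 in Alb-Cre livers and 2.24, 2.86, 3.18 and 2.53 in Alb-WT livers, so replicates 1 to 3 of Alb-Cre lay above the Alb-WT range and replicate 4 within it. Fars2, the single-chain mitochondrial phenylalanine enzyme, had 4.87, 4.10, 4.74 and 4.55 FPKM in Alb-Cre livers and 4.01, 3.97, 3.65 and 4.28 FPKM in Alb-WT livers. The groups overlapped for Fars2, and it was not called (log2 fold change 0.16 ± 0.07, limma adjusted p = 0.112), whereas median-of-ratios scaling called it at 0.32 (adjusted p = 0.0221).

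Dars encodes the aspartate enzyme, a class II member of the multi-synthetase complex. It had 18.1, 19.03, 16.3 and 16.5 FPKM in Alb-Cre livers, against 14.5, 13.7, 15.8 and 12.8 FPKM in Alb-WT livers. The groups did not overlap, and the gap between the lowest Alb-Cre and the highest Alb-WT library was small. Dars averaged 17.5 ± 1.29 FPKM in Alb-Cre and 14.2 ± 1.26 FPKM in Alb-WT livers (SD, n = 4 each), a log2 fold change of 0.28 ± 0.08 (SE, limma adjusted p = 0.0295), and 0.31 without Alb-Cre replicate 4 (adjusted p = 0.00505). Leaving out Alb-Cre replicate 1 or 2 or Alb-WT replicate 1, 2 or 4 ended the call, with limma adjusted p between 0.0661 and 0.0805.

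Tars, the cytosolic threonine enzyme, had 26.5, 26.6, 28.1 and 20.8 FPKM in Alb-Cre livers, against 19.6, 18.6, 21.1 and 18.8 FPKM in Alb-WT livers. Alb-Cre replicates 1 to 3 lay above every Alb-WT library, and replicate 4 lay below Alb-WT replicate 3. Tars averaged 25.5 ± 3.25 FPKM in Alb-Cre and 19.5 ± 1.14 FPKM in Alb-WT livers (SD, n = 4 each), a log2 fold change of 0.36 ± 0.10 (SE, limma adjusted p = 0.0244), and 0.45 without Alb-Cre replicate 4 (adjusted p = 6.25e-05). The call was lost without Alb-Cre replicate 1, 2 or 3 or Alb-WT replicate 1, 2 or 4, with limma adjusted p between 0.0615 and 0.0695. Tarsl2, a further cytosolic threonine enzyme and the lowest of the cytosolic set, had a lower mean in Alb-Cre livers, with 1.44, 1.36, 1.07 and 0.932 FPKM in Alb-Cre and 1.68, 1.41, 1.37 and 1.51 FPKM in Alb-WT livers. Its groups overlapped and it was not called (log2 fold change -0.19 ± 0.09, limma adjusted p = 0.146; 0.03 under quantile normalization). Tars2, the mitochondrial threonine enzyme, had 3.57, 4.11, 3.71 and 4.47 FPKM in Alb-Cre and 3.502, 3.68, 3.06 and 3.47 FPKM in Alb-WT livers, with an overlap and no call (log2 fold change 0.16 ± 0.08, limma adjusted p = 0.145). Median-of-ratios scaling called Tars2 at 0.32 (limma adjusted p = 0.0126).

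**Figure D3:**
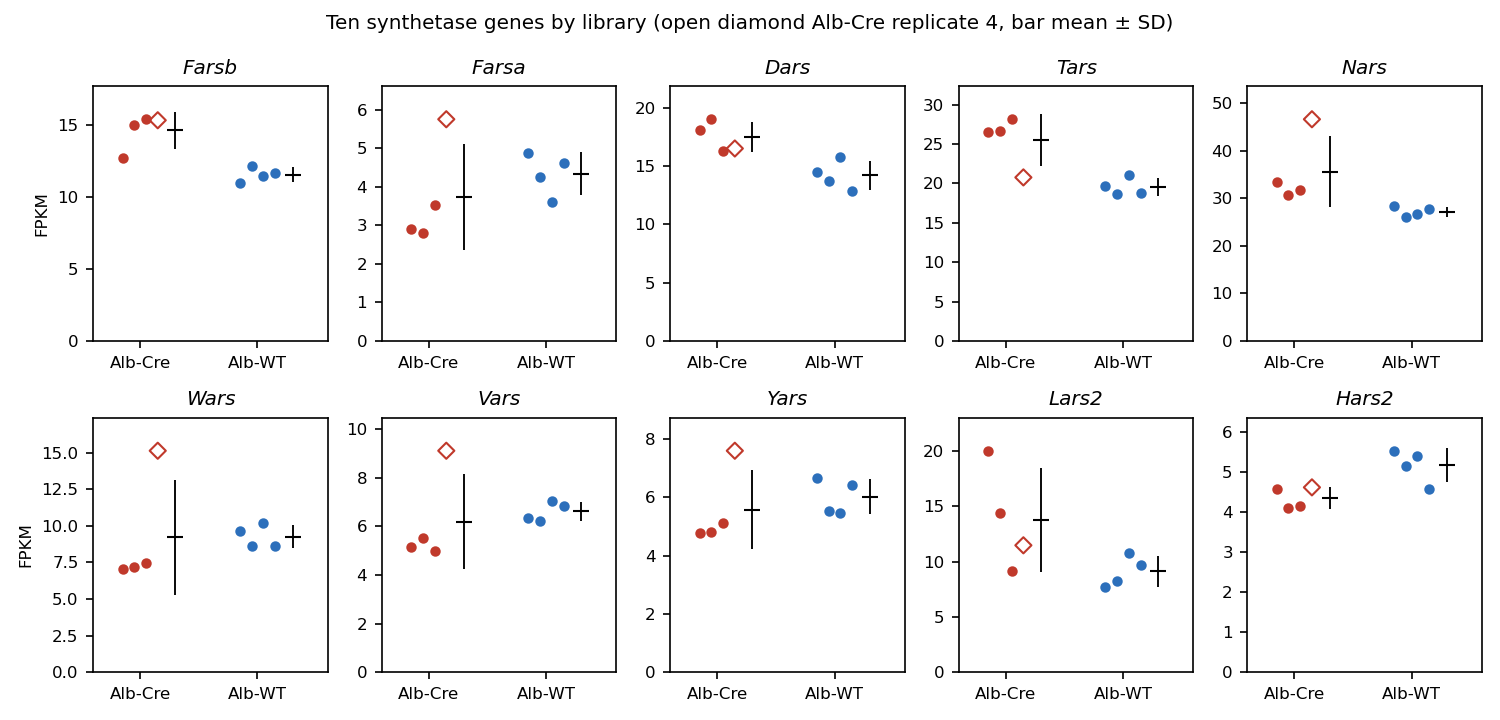
FPKM of 10 synthetase genes in the 4 Alb-Cre and 4 Alb-WT libraries, each point a library and the bar the mean ± SD of a group. Alb-Cre replicate 4 (open diamond) lies among its group for Farsb and Dars, below it for Tars, and above all other libraries for Nars, Farsa, Wars, Vars and Yars.

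The promoters of Farsb, Dars and Tars are shown because these were the genes called, and because the ATF4 pathway named above acts through a DNA element. The 3 calls among 37 tested genes stand beside 8.48% of all rows called higher, so they do not mark the genes as a group. Of the fits that left out a library, only the fit without Alb-Cre replicate 4 called all 3. Sequences are the 250 bases before the annotated start, 5′ to 3′ on the gene's strand, from RefSeq (GRCm38.p6), which lists 28 of the 38 synthetase genes, 14 cytosolic and 14 mitochondrial. The motif searched was TGATGNAA, the core of the C/EBP-ATF response element, on both strands and over the whole window from 250 bases before to 50 after the start. Capitals mark a match. Farsb lies on the minus strand at chr1:78488898-78489147, Dars on the minus strand at chr1:128417417-128417666 and Tars on the minus strand at chr15:11399659-11399908.
Farsb: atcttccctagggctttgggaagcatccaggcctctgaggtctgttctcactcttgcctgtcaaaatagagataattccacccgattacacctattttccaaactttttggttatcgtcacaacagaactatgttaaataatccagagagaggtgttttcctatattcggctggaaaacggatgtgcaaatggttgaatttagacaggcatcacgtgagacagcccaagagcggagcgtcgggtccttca
Dars: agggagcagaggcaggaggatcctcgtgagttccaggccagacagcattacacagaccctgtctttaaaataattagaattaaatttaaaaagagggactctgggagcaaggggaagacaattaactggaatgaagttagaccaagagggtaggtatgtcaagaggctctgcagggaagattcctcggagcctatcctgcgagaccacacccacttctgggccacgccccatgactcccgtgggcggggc
Tars: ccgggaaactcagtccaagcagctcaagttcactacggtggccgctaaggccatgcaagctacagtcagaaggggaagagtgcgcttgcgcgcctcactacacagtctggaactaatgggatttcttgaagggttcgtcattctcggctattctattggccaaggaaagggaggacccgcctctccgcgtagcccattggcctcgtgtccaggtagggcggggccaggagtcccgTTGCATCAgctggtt
Tars held a match 15 bases before its start. In Farsb and Dars these letters were not in the window, which says nothing of the factors that bind there.

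Matches to the motif were found in 5 of the 28 synthetase promoters, all of them cytosolic (5 of 14) and none mitochondrial (0 of 14). Over all 32851 promoters of that RefSeq set 3.97% held a match. The windows of 30 bases around the match in 4 of them, with the match in capitals, are shown to let the matches be compared. Tars lies at chr15:11399655-11399684 (minus strand), Gars at chr6:55037960-55037989 (plus strand), Iars at chr13:49682126-49682155 (plus strand) and Yars at chr4:129189895-129189924 (plus strand).
Tars: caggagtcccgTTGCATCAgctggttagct
Gars: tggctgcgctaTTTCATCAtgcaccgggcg
Iars: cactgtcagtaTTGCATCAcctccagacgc
Yars: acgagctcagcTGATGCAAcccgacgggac
The match lay 30 bases before the start in Gars, 7 after it in Iars and 3 after it in Yars. Of these 4 genes Tars was the single one called in all 8 libraries. A match is a description of the letters and not evidence of binding.

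Nars, the asparagine enzyme and the most abundant synthetase transcript, had 33.4, 30.7, 31.8 and 46.6 FPKM in Alb-Cre livers, against 28.3, 25.99, 26.6 and 27.7 FPKM in Alb-WT livers. Every Alb-Cre library lay above every Alb-WT library, with replicate 4 far above the rest. The log2 fold change was 0.36 ± 0.12 (SE) and missed the threshold (limma adjusted p = 0.0519), whereas without Alb-Cre replicate 4 the estimate was smaller, 0.23, and Nars was called (adjusted p = 0.0031). With all 8 libraries limma-voom on the recovered fragments also called it (0.37, adjusted p = 0.0426). So did limma under median-of-ratios scaling (0.55, adjusted p = 0.00233) and with the length trend removed (0.49, adjusted p = 0.00641). Quantile normalization and a common FPKM sum did not call Nars (limma adjusted p = 0.0661 and 0.171). Non-overlap with Alb-Cre higher held for 4 synthetase genes, Nars, Dars, Farsb and Ears2, and non-overlap with Alb-Cre lower for none, beside 9.27% and 21.4% of all rows. Aars, second in abundance, had 24.3, 24.7, 26.3 and 31.8 FPKM in Alb-Cre and 27.6, 24.5, 25.7 and 26.5 FPKM in Alb-WT livers. Aars overlapped between groups apart from the high replicate 4, and was not called (log2 fold change 0.03 ± 0.09, limma adjusted p = 0.824; -0.001 under quantile normalization and 0.22 with adjusted p = 0.0331 under median-of-ratios scaling).

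Alb-Cre replicate 4 had the highest level of all 8 libraries for 15 of the 21 cytosolic genes (71.4%) and for 6 of the 16 tested mitochondrial genes (37.5%), beside 26.0% of all rows. The genes described next were picked after their values were seen. Wars, the tryptophan enzyme, which interferon-gamma is known to induce, had 7.09, 7.19, 7.45 and 15.1 FPKM in Alb-Cre livers, against 9.65, 8.62, 10.2 and 8.63 FPKM in Alb-WT livers. Alb-Cre replicates 1 to 3 lay below, and replicate 4 above, every Alb-WT library, so the fold change of Wars was -0.07 ± 0.21 over all 8 libraries (limma adjusted p = 0.807) and Wars fell without replicate 4 (-0.31, adjusted p = 0.00229). The same arrangement held for Vars, the valine enzyme, at 5.14, 5.53, 5.002 and 9.11 FPKM in Alb-Cre and 6.35, 6.22, 7.06 and 6.85 FPKM in Alb-WT livers, and for Yars, the tyrosine enzyme, at 4.797, 4.81, 5.12 and 7.60 FPKM in Alb-Cre and 6.67, 5.53, 5.48 and 6.44 FPKM in Alb-WT livers. Both fell without Alb-Cre replicate 4 (log2 fold change -0.29 and -0.25, limma adjusted p = 0.00253 and 0.0151) and neither was called with it (-0.12 and -0.11, adjusted p = 0.585 and 0.537). Qars, the glutamine enzyme, was at 7.14 to 7.49 FPKM in Alb-Cre replicates 1 to 3 and 10.8 FPKM in replicate 4, beside 7.17 to 7.73 FPKM in Alb-WT, so it differed in replicate 4 alone.

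Without Alb-Cre replicate 4, limma called 5 synthetase genes higher (Dars, Farsb, Lars2, Nars and Tars) and 6 lower (Farsa, Hars2, Iars2, Vars, Wars and Yars), beside 15.2% of all rows higher (1679) and 46.1% lower (5112). The median deviation from the Alb-WT mean over the 21 cytosolic genes was -0.06, -0.07, -0.05 and 0.34 in Alb-Cre replicates 1 to 4 on the log2(FPKM + 1) scale, and -0.04 to 0.06 in Alb-WT libraries. Over the 16 mitochondrial genes it was -0.03, 0.02, -0.03 and 0.09 in Alb-Cre, with Alb-WT libraries at -0.001 to 0.02. Over all rows it was -0.16, -0.18, -0.15 and 0.005 in Alb-Cre, with Alb-WT libraries at -0.01 to 0.01. Both the cytosolic and the mitochondrial set thus stood above the median of all rows in each Alb-Cre library. The mitochondrial set was the higher in replicates 1 to 3 and the cytosolic set in replicate 4. Summed FPKM of 19 interferon-gamma response genes was 126 to 128 in Alb-Cre replicates 1 to 3, 404 in replicate 4 and 627 to 655 in Alb-WT. Summed FPKM of B and plasma cell markers was 160 to 163 in Alb-Cre replicates 1 to 3, 453 in replicate 4 and 179 to 191 in Alb-WT. Replicate 4 was thus above every other library there. Within that sum Igkc alone had 213.8 FPKM in replicate 4 and 18.2 to 52.3 FPKM in the other libraries. The list also holds Xbp1 and Sdc1, which hepatocytes express too. Summed FPKM of T and NK cell markers was 1.58 to 2.28 in Alb-Cre replicates 1 to 3, 15.99 in replicate 4 and 10.5 to 13.4 in Alb-WT, so replicate 4 was highest there too. That of neutrophil markers was 7.46 to 7.79, 90.4 and 267 to 329. The part of these cells or of the library itself in the synthetase levels was not tested.

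**Figure D4:**
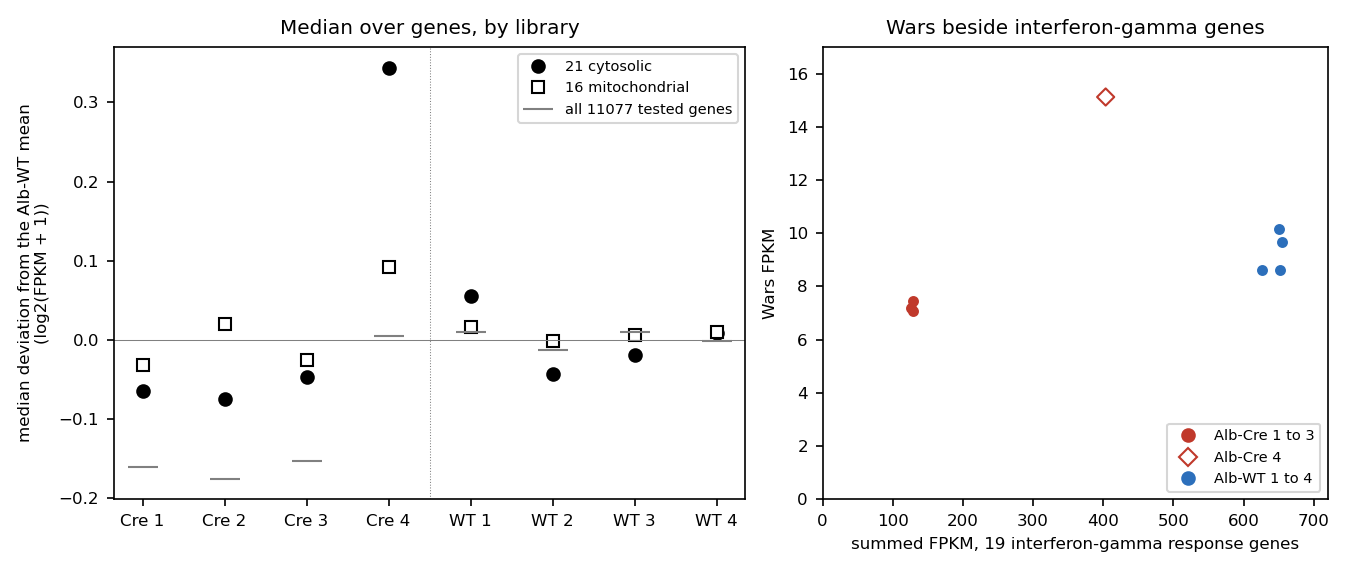
Left, the median deviation from the Alb-WT mean on the log2(FPKM + 1) scale over cytosolic synthetases, mitochondrial synthetases and all rows in each library; the cytosolic median of Alb-Cre replicate 4, 0.34, is the highest point. Right, Wars FPKM against summed FPKM of 19 interferon-gamma response genes, each point a library; Alb-Cre replicate 4 has the highest Wars level at a summed level between the other Alb-Cre libraries and the Alb-WT libraries.

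The other cytosolic enzymes were not called in either direction as deposited, whether all 8 libraries were used or Alb-Cre replicate 4 was left out. Mars1 for methionine was at 14.2 to 17.5 FPKM in Alb-Cre and 15.02 to 15.9 FPKM in Alb-WT livers, Hars for histidine at 12.96 to 18.6 and 12.4 to 15.9 FPKM, and Gars for glycine at 14.4 to 18.3 and 12.1 to 14.6 FPKM. Kars for lysine was at 11.4 to 16.5 FPKM in Alb-Cre and 12.2 to 12.99 FPKM in Alb-WT livers, Rars for arginine at 10.7 to 13.1 and 11.3 to 12.7 FPKM, and Sars for serine at 10.02 to 13.98 and 9.54 to 12.7 FPKM. Alb-Cre replicate 4 held the top value of each of these 6 genes. Iars for isoleucine was at 6.47 to 7.84 FPKM in Alb-Cre and 5.89 to 6.62 FPKM in Alb-WT livers, Eprs, which joins the glutamate and proline enzymes in a single chain, at 6.25 to 8.61 and 6.17 to 6.99 FPKM, Lars for leucine at 5.06 to 8.40 and 4.99 to 6.57 FPKM, and Cars for cysteine at 3.97 to 4.71 and 4.54 to 4.93 FPKM. Median-of-ratios scaling called Gars (log2 fold change 0.39, limma adjusted p = 0.00524, against 0.20 and 0.114 as deposited), Iars (0.31, adjusted p = 0.0263), Hars (0.31, adjusted p = 0.0275), Eprs (0.25, adjusted p = 0.0194) and Kars (0.24, adjusted p = 0.0306) higher, and Qars as well (0.26, adjusted p = 0.0373). By structural class, 3 of 19 class II genes and 0 of 17 class I genes were called with limma, where 2 class I genes were higher at an unadjusted p under 0.05 and voom also called 0. Without Alb-Cre replicate 4 the class II genes had 4 calls higher and 2 lower and the class I genes 1 higher and 4 lower. The difference between the classes was not tested. Over all rows 8.48% were higher and 23.3% lower with all 8 libraries. The bifunctional Eprs carries both classes and was left out of that count. Among the 8 complex enzymes Dars was called, with a median log2 fold change of 0.07, and among the 13 cytosolic enzymes outside the complex Farsb and Tars, with a median of 0.02. Both medians turned negative without Alb-Cre replicate 4, at -0.05 for the complex and -0.08 outside it.

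None of the 16 tested mitochondrial synthetase genes was called as deposited by limma with all 8 libraries, or by voom, and at an unadjusted p under 0.05 2 were higher and 1 was lower. The genes named here were picked after their values were seen. Lars2, the mitochondrial leucine enzyme, varied widely among the Alb-Cre libraries, with 20.02, 14.4, 9.17 and 11.5 FPKM in Alb-Cre livers, against 7.67, 8.30, 10.8 and 9.71 FPKM in Alb-WT livers. Alb-Cre replicates 1 and 2 were high and replicate 3 lay within the Alb-WT range, so the groups overlapped. Its log2 fold change, 0.50 ± 0.21, was the largest estimate among the 37 synthetase genes and was not called (limma adjusted p = 0.0897), but Lars2 was called without Alb-Cre replicate 3 (0.66, adjusted p = 0.0468) or without replicate 4 (0.57, adjusted p = 0.032), and stood at 0.31 in the lowest of the 8 fits that left out a library. With all 8 libraries it was called once the length trend was removed (0.71, limma adjusted p = 0.045), and not under the other scalings. Ears2, the mitochondrial glutamate enzyme, had 2.15, 2.16, 1.97 and 2.23 FPKM in Alb-Cre and 1.44, 1.91, 1.55 and 1.96 FPKM in Alb-WT livers. The groups did not overlap, by a narrow margin, and Ears2 was not called (log2 fold change 0.21 ± 0.08, limma adjusted p = 0.0784). Ears2 was called under median-of-ratios scaling (0.34, limma adjusted p = 0.0189), quantile normalization (0.42, adjusted p = 0.0113) and with the length trend removed (0.36, adjusted p = 0.019). Fars2, Tars2 and Cars2 were also called higher under quantile normalization (limma adjusted p = 0.0209, 0.00929 and 0.0169) and with the length trend removed (0.022, 0.011 and 0.0342).

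Hars2, the mitochondrial histidine enzyme, had a lower mean in Alb-Cre livers, with 4.59, 4.11, 4.15 and 4.63 FPKM in Alb-Cre and 5.54, 5.16, 5.41 and 4.59 FPKM in Alb-WT livers. Alb-WT replicate 4 was as low as the higher Alb-Cre libraries, and Hars2 was called lower only without Alb-Cre replicate 4 (log2 fold change -0.22, limma adjusted p = 0.0197; -0.20 and 0.066 in all 8 libraries) and with a common FPKM sum (-0.27, adjusted p = 0.0484). Iars2, the mitochondrial isoleucine enzyme, was at 5.09, 4.62, 5.57 and 6.82 FPKM in Alb-Cre and 5.99, 5.87, 5.75 and 5.95 FPKM in Alb-WT livers, and fell without Alb-Cre replicate 4 (-0.18, limma adjusted p = 0.0326; -0.09 and 0.502 in all 8 libraries). Of the other mitochondrial enzymes, Yars2 was at 4.21 to 5.37 FPKM in Alb-Cre and 4.11 to 4.87 FPKM in Alb-WT livers, Rars2 at 3.22 to 3.797 and 3.55 to 4.08 FPKM, and Aars2 at 3.19 to 3.44 and 3.16 to 4.28 FPKM. Vars2 was at 2.81 to 2.94 FPKM in Alb-Cre and 2.50 to 3.21 FPKM in Alb-WT livers, Sars2 at 2.32 to 3.00 and 2.42 to 3.55 FPKM, and Nars2 at 2.12 to 2.94 and 2.44 to 2.96 FPKM. Cars2 was at 1.29 to 2.05 FPKM in Alb-Cre and 1.13 to 1.54 FPKM in Alb-WT livers, Pars2 at 0.734 to 0.991 and 0.738 to 1.33 FPKM, Wars2 at 0.390 to 0.941 and 0.490 to 0.742 FPKM, and the untested Mars2 at 0.243 to 0.529 and 0.214 to 0.311 FPKM. All of these ranges overlapped between the groups.

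Cytosolic and mitochondrial genes for the same amino acid could be set side by side for 15 pairs, taking Farsb for phenylalanine and Tars for threonine. The cytosolic gene was higher in all 8 libraries in 12 of the 15. The ratio of FPKM was widest for methionine, where Mars1 over Mars2 averaged 45.4 ± 12.7 in Alb-Cre and 58.7 ± 10.0 in Alb-WT livers (SD, n = 4 each). Leucine was reversed, with Lars over Lars2 at 0.290, 0.363, 0.552 and 0.732 in Alb-Cre and 0.726, 0.602, 0.556 and 0.677 in Alb-WT livers. Lars2 was thus above Lars in every library, most of all in Alb-Cre replicate 1. For asparagine, Nars over Nars2 was 12.96, 10.4, 13.3 and 22.0 in Alb-Cre and 10.6, 10.7, 8.98 and 10.5 in Alb-WT livers. For histidine, Hars over Hars2 averaged 3.51 ± 0.407 in Alb-Cre and 2.71 ± 0.509 in Alb-WT livers (SD, n = 4 each), and the groups overlapped. For threonine, a pair with a called cytosolic gene, the ratios of Tars over Tars2 also overlapped, at 4.65 to 7.59 in Alb-Cre livers, against 5.06 to 6.89 in Alb-WT livers. These ratios are descriptions and were not tested.

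**Figure D5:**
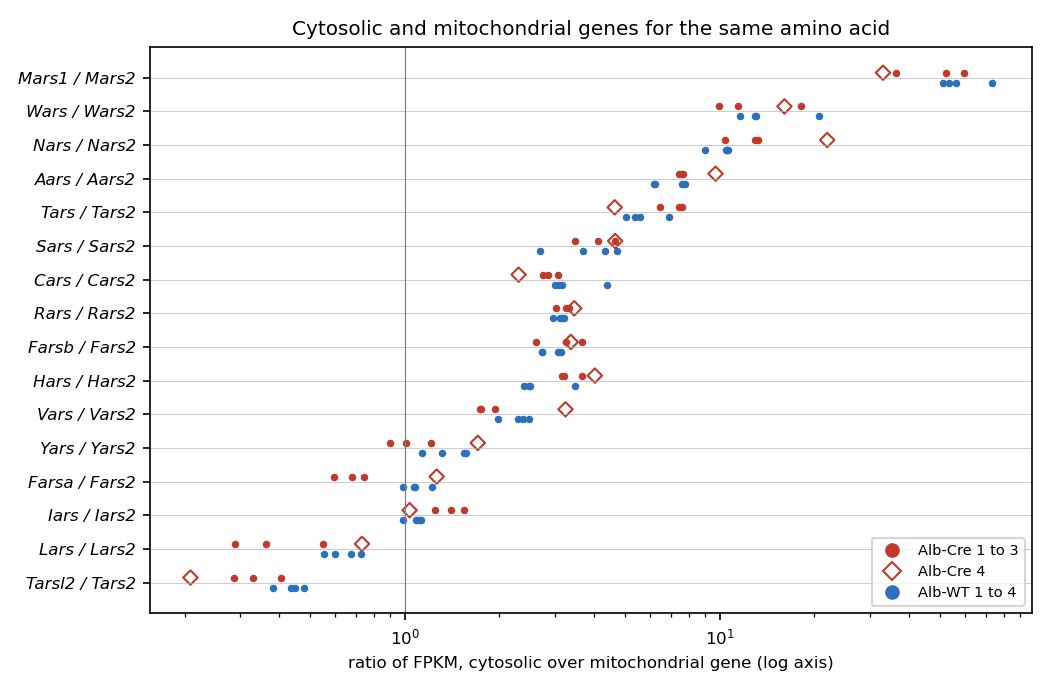
Ratio of FPKM of the cytosolic over the mitochondrial gene for amino acids with a gene in both compartments, one point per library, on a log axis with a line at equal levels. Lars over Lars2 lies left of the line in every library, and Nars over Nars2 in Alb-Cre replicate 4, at 22.0, lies to the right of the other libraries.

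Genes that work beside the synthetases were read from lists chosen with earlier results of these data known, so their directions are not independent evidence. Their counts stand beside 8.48% of all rows higher and 23.3% lower in all 8 libraries, and 15.2% higher and 46.1% lower without Alb-Cre replicate 4. The scaffold genes of the multi-synthetase complex, Aimp1, Aimp2 and Eef1e1, gave 0 calls of 3 with limma and with voom, and 0 at an unadjusted p under 0.05, with a median log2 fold change of 0.02. Of 16 genes for editing, transfer and release of tRNA, 2 rose and none fell: Gatb, a subunit of the mitochondrial amidotransferase that makes glutaminyl-tRNA, averaged 7.13 ± 0.756 FPKM in Alb-Cre and 5.34 ± 0.461 FPKM in Alb-WT livers (limma adjusted p = 0.0173), and Ptrh2, a peptidyl-tRNA hydrolase, 5.21 ± 0.235 and 4.21 ± 0.383 FPKM (adjusted p = 0.0288; SD, n = 4 each). Without Alb-Cre replicate 4, 2 rose and 2 fell. Of 11 cytosolic elongation and selenocysteine factors 3 rose, the eEF1B subunits Eef1g (log2 fold change 0.43, limma adjusted p = 0.00596) and Eef1b2 (0.45, adjusted p = 0.00598) and Eif5a, and none fell, whereas without Alb-Cre replicate 4, 4 rose and 2 fell. Of 16 mitochondrial translation factors 4 rose and none fell, and without Alb-Cre replicate 4, 5 rose and 2 fell. The most significant were Tsfm, the mitochondrial elongation factor Ts, at 6.02 ± 0.467 FPKM in Alb-Cre and 3.79 ± 0.271 FPKM in Alb-WT livers (log2 fold change 0.55, limma adjusted p = 0.00177), and Gfm1, an elongation factor G, at 17.1 ± 0.133 and 13.9 ± 0.401 FPKM (0.28, adjusted p = 0.00705; SD, n = 4 each). Of the 13 mitochondrially encoded proteins, a list chosen after the data were seen, ND3 rose (log2 fold change 0.76, limma adjusted p = 0.0163) and none fell, and without Alb-Cre replicate 4, 2 rose and 2 fell. ND3 averaged 116 FPKM in Alb-Cre and 67.2 FPKM in Alb-WT livers, far below ND1 of the same genome at 6944 and 6865 FPKM. The reason for that gap was not tested, and the rise of ND3 is uncertain to that extent.

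Of 21 tested genes of uncharged tRNA sensing and ATF4 targets 7 fell and 1 rose, with a median log2 fold change of -0.20 beside -0.13 for all rows, and without Alb-Cre replicate 4, 13 fell and 2 rose. Over all rows 23.3% fell, and 46.1% without that library. Sesn2, a leucine sensor upstream of mTORC1, had 1.79, 1.63, 1.80 and 2.56 FPKM in Alb-Cre livers, against 3.60, 4.14, 3.95 and 4.14 FPKM in Alb-WT livers. Its groups did not overlap, and it fell by 0.76 on the log2 scale (limma adjusted p = 0.00167). Ddit4, a stress-induced inhibitor of mTORC1, had 13.4, 8.26, 12.6 and 7.29 FPKM in Alb-Cre livers, against 22.9, 28.6, 25.8 and 30.2 FPKM in Alb-WT livers. It did not overlap either and fell by 1.32 (limma adjusted p = 0.00205). Psph, the last enzyme of serine synthesis, was the riser (log2 fold change 0.34, limma adjusted p = 0.0249). Atf4 itself averaged 29.0 ± 6.20 FPKM in Alb-Cre and 25.04 ± 1.68 FPKM in Alb-WT livers (SD, n = 4 each). Over all 8 libraries Atf4 missed the threshold (limma adjusted p = 0.279). Alb-Cre replicates 1 to 4 held 26.3, 24.6, 27.1 and 38.2 FPKM of Atf4, beside 22.9 to 26.9 FPKM in Alb-WT. Asns, picked after its values were seen, stood at 1.54, 1.57, 1.49 and 7.14 FPKM there, beside 6.07 to 6.90 FPKM in Alb-WT. Replicate 4 was thus the highest library for both, whereas Sesn2 and Ddit4 stayed below Alb-WT in it. The cause was not tested.

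Exons of some members overlap other genes in the GENCODE M21 annotation, and whether counting used strand is not given in the sources used here. Farsb shares 9.47% of its exon bases with Sgpp2 on the opposite strand, Iars2 22.9% with Rab3gap2 and Fars2 8.72% with Nrn1. Aars shares 14.3% with Exosc6 on its own strand. Hars and Hars2 overlap each other on opposite strands over 7.97% of the exon bases of Hars and 4.56% of those of Hars2. Values of these genes are to that extent uncertain. Dars and Tars had no such overlap.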

How the data were processed

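Liver RNA was sequenced in bulk in 8 libraries, grouped by their titles. Per the labels' protocols, Trizol extraction of total RNA preceded an Illumina library preparation, and the descriptions name 10x Genomics as well. The authors deposited FPKM; the submitters' processing notes name HISAT2 2.0.5 and give genome builds of mouse and human without saying what each was for. Counter, annotation and strand setting: not given in the sources used here. The table held no value of 0, so genes with no fragment are not analysed here.

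Whole fragments were recovered from the FPKM steps for 13700 of 13703 rows (99.98%, relative tolerance 1e-08). This gave 32522415, 33177097, 35515036 and 38889261 fragments for replicates 1 to 4 of Alb-Cre, and 33249979, 38537039, 32981698 and 36747391 for those of Alb-WT. Implied lengths equalled merged GENCODE M21 exon lengths within 1 bp for 12759 of 13474 rows (94.69%) and for 37 of the 38 synthetase genes. Genes of few fragments carry the larger counting error.

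limma 3.58.1 (R 4.3.3, intensity trend, genotype as sole term) was fitted to log2(FPKM + 1) of the 11077 rows averaging 0.5 FPKM or more, two-sided, with Benjamini-Hochberg adjustment; fold changes on this scale understate those of low genes. The scripts were tested on simulated data. Other steps used Python 3.11.15 (pandas 2.3.3, numpy 2.4.6, matplotlib 3.10.9, scipy 1.17.1). Alternatives were a pseudocount of 0.1, no filter, 3 other scalings, removal of the length trend, limma-voom on the recovered fragments, a replicate block, each library left out, and other compartment assignments of Tarsl2, Gars and Kars. The members and lists were chosen with earlier results of these data known. Values per library are given for called members without overlap, the 3 highest members and the partners of called members. Of each of the 15 lists, counts and the 2 called genes of smallest p in each direction are given, and Atf4 and Asns besides. RefSeq promoters (GRCm38.p6) were matched by symbol. Single values of 1 mitochondrial synthetase gene and 1 promoter sequence are not reported here.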

Additional observations from a re-analysis of the deposited data

Results flagged for a closer look

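Among the 76 groups of 4 values (38 genes in 2 genotypes), 8 had a library set far apart from the other 3, where chance gives about 1 in 20. In 7 of the 8 that library was Alb-Cre replicate 4 and its value was high. Nars reached 46.6 FPKM in that library, against 30.7 to 33.4 FPKM in Alb-Cre replicates 1 to 3. Gars was 18.3 FPKM there and 14.4 to 14.8 FPKM in the others. Wars was 15.1 FPKM there and 7.09 to 7.45 FPKM in the others, and Qars 10.8 FPKM there and 7.14 to 7.49 FPKM in the others. Vars was 9.11 FPKM there and 5.002 to 5.53 FPKM in the others. Eprs was 8.61 FPKM there and 6.25 to 6.58 FPKM in the others, and Yars 7.60 FPKM there and 4.797 to 5.12 FPKM in the others. All 7 genes are cytosolic. Farsb was low in Alb-Cre replicate 1, at 12.7 FPKM, with replicates 2 to 4 between 15.03 and 15.4 FPKM. The causes were not tested.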

How the results depend on the processing

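A pseudocount of 0.1 and no filter on low values each called the same 3 synthetase genes, Farsb, Dars and Tars. The number called higher was 15 under median-of-ratios scaling, 14 with the length trend removed, 10 under quantile normalization and 1 with a common FPKM sum, which also called 1 lower. Leaving out a library in turn gave 0 to 5 higher and 0 to 6 lower, the 0 higher without Alb-WT replicate 1. Of all rows, 1872 were higher and 1516 lower under median-of-ratios scaling, 1554 and 1469 under quantile normalization, 623 higher with a common sum, 1507 lower with the length trend removed, and 546 to 1679 higher and 1205 to 5112 lower with a library left out. The median log2 fold change of all rows was -0.19 with a common sum, -0.007 with the length trend removed, 0.016 under median-of-ratios scaling and 0.02 under quantile normalization. The cytosolic median was 0.22 under median-of-ratios scaling and -0.024 with a common sum. The mitochondrial median was -0.052 with a common sum, 0.15 with the length trend removed, 0.11 under median-of-ratios scaling and 0.20 under quantile normalization. The cytosolic minus the mitochondrial median was -0.071 under quantile normalization, against 0.05 as deposited, and -0.04 without Alb-Cre replicate 4. Counting Tarsl2 as mitochondrial or leaving out Gars and Kars moved that difference to 0.07 and 0.03. The causes were not tested.

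Deviations of same-numbered libraries from their group means correlated at -0.06, -0.05, -0.10 and 0.01. Alb-Cre replicate 4 pulled the mean of its group, so these values cannot settle whether the numbers pair the libraries. With the replicate number as a block, 2 synthetase genes were higher, Farsb and Tars, and of all rows 613 were higher and 1631 lower.

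Fold changes of 24 of the 37 tested synthetase genes, picked by hand, were followed under 16 alternatives. They kept direction and side of the threshold in 304 of 384 cases, passed the threshold newly in 41, lost it in 17 and changed sign in 22. These counts do not cover the other tested synthetase genes. None of the genes that changed sign was called in all 8 libraries. Signs changed under quantile normalization for Aars (-0.001), Tarsl2 (0.03), Iars2 (0.048), Vars (0.012), Wars (0.033) and Yars (0.027). With a common sum they changed for Aars (-0.055) and Kars (-0.024). With the length trend removed they changed for Iars2 (0.10), Vars (0.039), Wars (0.016) and Yars (0.05), and under median-of-ratios scaling for Iars2 (0.076), Vars (0.05), Wars (0.102) and Yars (0.053). With a library left out they changed for Aars (-0.055 to 0.071), Eprs (-0.013 to 0.123), Kars (-0.051 to 0.114), Qars (-0.044 to 0.133) and Wars (-0.314 to 0.018). Depth limits the lowest members most: Mars2, Wars2 and Pars2 had 76 to 234 fragments per library.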

Other observations

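Markers of other liver cells also differed between the groups, but not alike in all Alb-Cre libraries. Summed Kupffer cell and macrophage markers were at 1333 FPKM in Alb-Cre replicate 4, near the 1378 to 1413 FPKM of Alb-WT, whereas Vsig4 and Clec4f stayed below Alb-WT there. Of 14 Kupffer cell and macrophage markers 13 fell and none rose, led by Vsig4 (log2 fold change -1.06, limma adjusted p = 0.000716) and Clec4f (-1.03, adjusted p = 0.00237). All 6 tested neutrophil markers fell, led by Elane (-2.98, adjusted p = 0.00106) and Mmp9 (-0.84, adjusted p = 0.00161). Of 19 interferon-gamma response genes 17 fell and none rose, led by Iigp1 (-1.66, adjusted p = 0.000227) and Irgm1 (-1.29, adjusted p = 0.000759). Of 10 stellate cell and fibroblast markers 5 fell, among them Dcn (-0.64, adjusted p = 0.000255) and Col1a2 (-0.85, adjusted p = 0.0195), and Acta2 rose (0.63, adjusted p = 0.0079). Of 9 endothelial markers 4 fell, led by Lyve1 (-0.81, adjusted p = 0.000278) and Cdh5 (-0.65, adjusted p = 0.000805). Of 5 cholangiocyte markers 4 fell, led by Spp1 (-0.93, adjusted p = 0.00419) and Epcam (-0.59, adjusted p = 0.00766). Of 6 T and NK cell markers Gzma fell (-1.22, adjusted p = 0.0383). Of 7 B and plasma cell markers Xbp1, which hepatocytes also express, rose (0.62, adjusted p = 0.0171) and Sdc1, likewise, fell (-0.25, adjusted p = 0.0216). Of 14 hepatocyte markers Cyp2e1 fell (-0.37, adjusted p = 0.014). Voom on the recovered fragments called 4 hepatocyte markers lower. Over all rows limma called 8.48% higher and 23.3% lower. Without Alb-Cre replicate 4, with 15.2% of all rows higher and 46.1% lower, limma called 14 of 14 Kupffer cell and macrophage, 19 of 19 interferon-gamma, 6 of 6 neutrophil, 6 of 6 T and NK cell and 4 of 5 cholangiocyte markers lower and none of them higher. In the same fit 7 hepatocyte markers were lower and 3 higher, 5 endothelial lower and 3 higher, 5 B and plasma cell lower and 1 higher, and 7 stellate cell and fibroblast lower and 1 higher.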
